A study of Homo sapiens with 9 samples.

Results

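The genes described here are 9 that encode the hypoxia-inducible transcription factors (HIFs) and the proteins that tie their activity to oxygen: HIF1A, EPAS1, ARNT, EGLN1, EGLN2, EGLN3, HIF1AN, VHL and CITED2. They were chosen by symbol for their known roles and not by a rule on their values, but with earlier results of these data known. All 9 are listed and were tested in both count tables of the series, which hold 13017 and 12953 genes and have 12854 in common. The cells are HepG2, an established human liver cancer line grown in low-glucose medium with serum. From them 3 lines were made and compared: sh-Con, which carries a control short hairpin RNA and is labelled WT, and sh1-TUG1 and sh2-TUG1, which carry different hairpins against the long noncoding RNA TUG1 and are labelled TUG1 knockdown. Each hairpin sits in a lentiviral Tet-pLKO-Puro vector, in which doxycycline switches it on, and each hairpin is represented by 1 stable line. Every line gave 3 RNA-seq libraries, which the study calls technical replicates, so the errors and p-values below measure the spread between libraries and may not cover the spread between cultures. TUG1 itself was not analysed here, and the labels were not checked against it.

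HIFs are pairs of proteins in which an oxygen-labile alpha subunit joins a stable beta subunit, and the pair binds a short core sequence near its target genes. When oxygen is plentiful, prolyl hydroxylases of the EGLN family use it, together with 2-oxoglutarate and iron, to hydroxylate the alpha subunits, which lets the VHL ubiquitin ligase mark them for destruction. An asparaginyl hydroxylase, HIF1AN, also called FIH, blocks the contact of the alpha subunits with coactivators. Much of this control acts on proteins, which these data do not measure: what follows concerns mRNA. EGLN3, EGLN1 and CITED2 are themselves known as targets of HIFs in many cells, and EPAS1 is an abundant alpha subunit in liver.

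Library totals ran from 33051617 to 39393293 counts over the listed genes. All 10 hepatocyte marker genes looked for were listed, and their summed level was 40053 to 41728 CPM (counts scaled to the normalized library total) in sh-Con, 44560 to 46014 in sh1-TUG1 and 48742 to 51059 in sh2-TUG1. ALB, albumin, carried that difference: without it the sum of the other 9 was 26810 to 28949, 26291 to 26787 and 23365 to 25660 CPM. Of 7 fibroblast markers only PDGFRB was listed (19.3 to 21.8, 31.9 to 34.4 and 53.1 to 58.5 CPM in the same order), while the collagen genes COL1A1, COL1A2 and COL3A1 were not. Of 5 leukocyte markers only CD68 was listed (59.2 to 71.8, 33.7 to 37.4 and 17.6 to 24.0 CPM), while PTPRC, which marks leukocytes in general, was not. Of 5 endothelial markers PECAM1 and VWF were listed, with a summed level of 8.75 to 9.46, 11.3 to 12.2 and 12.2 to 13.6 CPM, while CDH5, KDR and TEK were not. The part of these marker genes in the results below was not tested.

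In the control cells, levels scaled to transcript length (CPM per kilobase of the principal transcript in GENCODE 29) were highest for the alpha subunits. EPAS1 stood at 61.5 ± 2.29 CPM per kilobase (SD, n = 3) and HIF1A at 53.0 ± 0.896. EGLN3 followed with 32.5 ± 1.74, and then VHL with 24.9 ± 1.91, EGLN1 with 24.9 ± 1.40 and CITED2 with 23.2 ± 2.27 CPM per kilobase, of which the last 3 had overlapping libraries. EGLN2 stood at 15.4 ± 0.597, ARNT at 6.22 ± 0.648 and HIF1AN at 5.34 ± 0.342 CPM per kilobase. The highest level was thus 11.5 times the lowest. The beta subunit and the asparaginyl hydroxylase were the least abundant of the 9 mRNAs on this scale.

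The order changed in the knockdown lines. In sh2-TUG1, HIF1A came first with 67.2 ± 4.26 CPM per kilobase and EPAS1 second with 50.1 ± 0.904, and their libraries did not overlap. EGLN3, the third in sh-Con, was the seventh in both lines, with 13.2 CPM per kilobase in sh1-TUG1 and 11.8 in sh2-TUG1. VHL took the third place with 30.1 and 33.9 CPM per kilobase. The place of EGLN3 depends on the length used: over the union of all its annotated exons (7359 bases, against 2709 for the principal transcript) it was the sixth in sh-Con, the eighth in sh1-TUG1 and the ninth in sh2-TUG1. By that length EPAS1 still led HIF1A in sh-Con (43.5 against 40.3 CPM per kilobase) and HIF1A led EPAS1 in sh2-TUG1 (51.2 against 35.4). In sh1-TUG1 their order depends on the length used. EPAS1 led there by the principal transcript (54.2 against 51.5), and HIF1A by the exon union (39.2 against 38.4), with overlapping libraries.

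**Figure D1:**
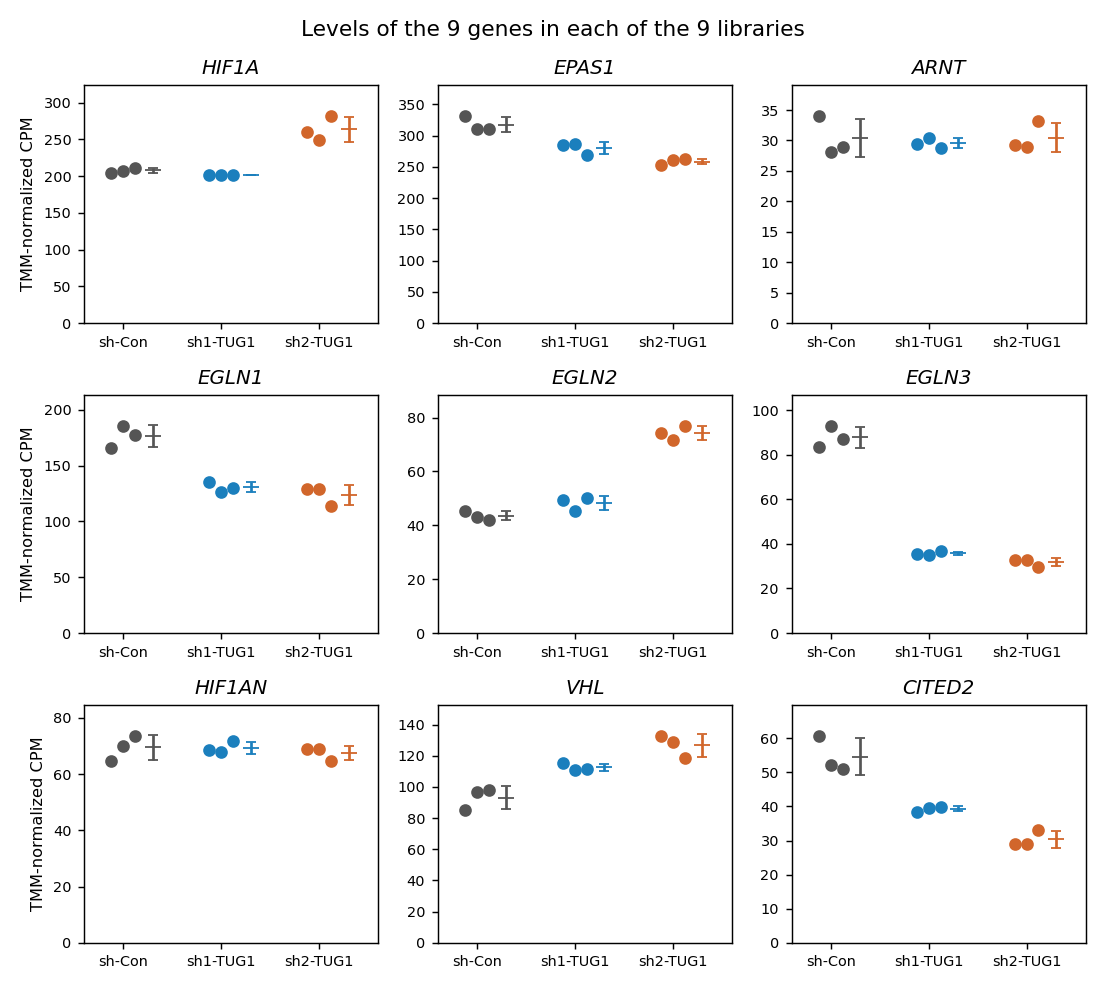
TMM-normalized CPM (y axis, from 0) of the 9 genes in each of the 9 libraries, with the mean and SD of each line beside the 3 points. EGLN3 libraries of both knockdown lines lie between 29.8 and 36.7 CPM against 83.8 to 93.1 in sh-Con, EGLN2 is high in sh2-TUG1 at 71.7 to 76.9 CPM, and the ARNT and HIF1AN libraries of the 3 lines overlap.

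The first question was whether the genes for this machinery were expressed differently after TUG1 knockdown. In sh1-TUG1 cells 5 of the 9 genes passed an adjusted p of 0.05 against sh-Con (edgeR's quasi-likelihood test, Benjamini–Hochberg adjustment over all genes of the table), VHL higher and EPAS1, EGLN1, EGLN3 and CITED2 lower. Of all genes tested, 24.8% passed, 12.5% higher and 12.3% lower. In sh2-TUG1 cells 7 of 9 passed, with HIF1A, VHL and EGLN2 higher and EPAS1, EGLN1, EGLN3 and CITED2 lower. There 43.5% of all genes passed, 21.6% higher and 21.9% lower. With a fold change over 1.5 as well, only EGLN3 passed in sh1-TUG1 (4.96% of all genes), and EGLN2, EGLN3 and CITED2 passed in sh2-TUG1 (13.3% of all genes). The knockdown and control libraries did not overlap for 7 of the 9 genes in sh1-TUG1 (41.7% of all genes) and for 7 in sh2-TUG1 (54.5%). For sh1-TUG1 cells the 9 genes had a median log2(fold change) of −0.04, and for sh2-TUG1 cells of −0.05, against 0.003 and −0.005 over all genes. Both comparisons use the same 3 control libraries, so a like value in both lines is not an independent repeat. RNA from whole cultures cannot tell fewer expressing cells from less mRNA per cell.

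**Figure D2:**
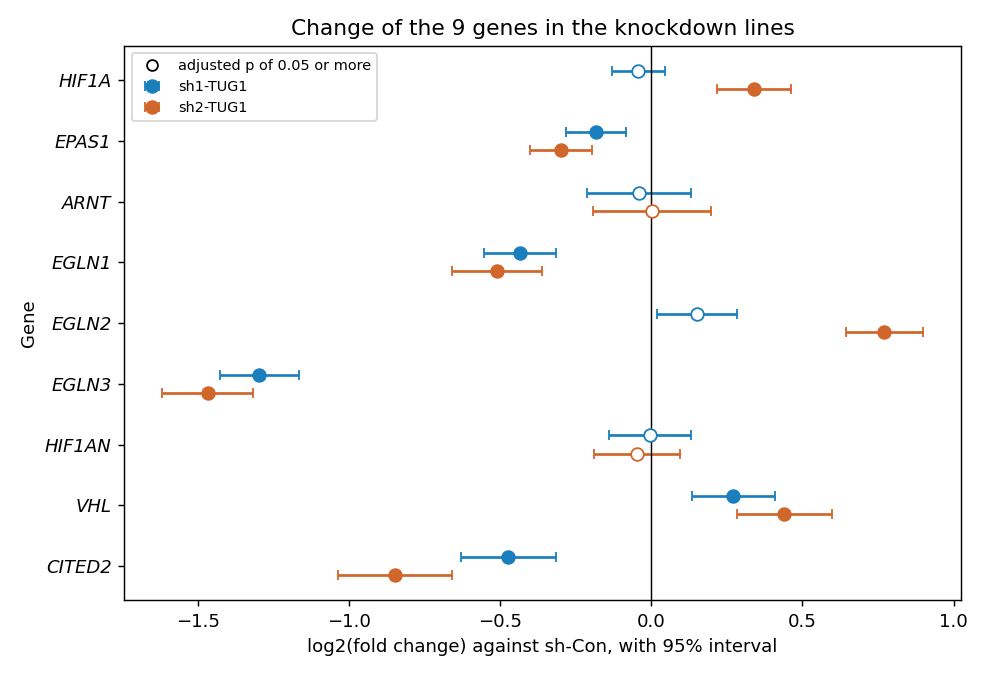
Log2(fold change) against sh-Con (x axis) of the 9 genes with 95% intervals, blue for sh1-TUG1 and orange for sh2-TUG1, filled where the adjusted p was under 0.05. EGLN3 lies farthest from 0 in both lines, EPAS1, EGLN1, EGLN3 and CITED2 lie below 0 and VHL above 0 in both, and HIF1A and EGLN2 are filled in sh2-TUG1 only.

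Among the alpha subunits, HIF1A was higher in sh2-TUG1 and did not pass in sh1-TUG1, while EPAS1 was lower in both. HIF1A, which encodes the widely expressed HIF-1 alpha subunit (chromosome 14, 61695513 to 61748259, plus strand, GRCh38), had 205, 207 and 212 CPM in the sh-Con libraries, 202, 202 and 202 in sh1-TUG1 and 260, 249 and 282 in sh2-TUG1. Every sh2-TUG1 library was above every other library, and the sh1-TUG1 libraries lay just below the controls. The log2(fold change) was 0.34 in sh2-TUG1 (standard error 0.054, adjusted p = 0.000902 in edgeR's test), a fold change of 1.27. In sh1-TUG1 it was −0.04 (95% interval −0.13 to 0.04, adjusted p = 0.459 in edgeR's test).

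EPAS1, which encodes the HIF-2 alpha subunit (chromosome 2, 46293667 to 46386703, plus strand), had 331, 311 and 311 CPM in sh-Con, 285, 286 and 269 in sh1-TUG1 and 253, 261 and 262 in sh2-TUG1. The 3 lines did not overlap, with sh-Con highest and sh2-TUG1 lowest. EPAS1 fell by 0.18 on the log2 scale in sh1-TUG1 cells (standard error 0.044, adjusted p = 0.0150 in edgeR's test) and by 0.30 in sh2-TUG1 cells (standard error 0.045, adjusted p = 0.000672). The sh1-TUG1 call rests on replicate 3 of that line: without it the value was −0.16 with an adjusted p of 0.0744 in edgeR's test. Among the settings that tested for any change that was the highest adjusted p, and the lowest was 0.00221 in DESeq2. In the test against a fold change of 1.5 (edgeR's glmTreat) EPAS1 did not pass in sh1-TUG1.

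ARNT, which encodes the beta subunit shared by both alpha subunits (chromosome 1, 150809705 to 150876768, minus strand), had 28.2 to 34.0 CPM in sh-Con, 28.8 to 30.4 in sh1-TUG1 and 28.9 to 33.2 in sh2-TUG1. These ranges overlap. The 95% interval of the log2(fold change) was −0.21 to 0.13 in sh1-TUG1 and −0.19 to 0.20 in sh2-TUG1, and its sign turned when single libraries were left out.

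The balance of the alpha subunits is free of library scaling when taken as a ratio within each library. The log2 ratio of HIF1A to EPAS1 counts was −0.69, −0.59 and −0.56 in the sh-Con libraries, −0.50, −0.51 and −0.41 in sh1-TUG1 and 0.04, −0.07 and 0.11 in sh2-TUG1. The 3 lines did not overlap, and HIF1A and EPAS1 counts, not scaled to length, were near equal in sh2-TUG1. Per kilobase of annotated exons the values were −0.19, −0.08 and −0.05 in sh-Con and 0.004, −0.002 and 0.09 in sh1-TUG1. In sh2-TUG1 they were 0.54, 0.44 and 0.61, so on that scale sh1-TUG1 was the line near equality. Compared with sh-Con the ratio was higher by 0.14 in sh1-TUG1 cells and by 0.64 in sh2-TUG1 cells, and the knockdown lines differed by 0.50. In an exact two-sided permutation test each of these had p = 0.1, the smallest that 3 libraries against 3 allow.

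The prolyl hydroxylases did not move one way: EGLN3 and EGLN1 were lower in both lines and EGLN2 was higher in sh2-TUG1. EGLN3, also called PHD3 and the EGLN gene most strongly induced by low oxygen in many cells (chromosome 14, 33924231 to 34462774, minus strand), had 83.8, 93.1 and 87.0 CPM in sh-Con, 35.5, 35.2 and 36.7 in sh1-TUG1 and 32.8, 33.0 and 29.8 in sh2-TUG1. All 6 knockdown libraries stood at 36.7 CPM or below and all 3 controls at 83.8 CPM or above. EGLN3 fell by 1.30 on the log2 scale in sh1-TUG1 (standard error 0.059, adjusted p = 9.20e-07 in edgeR's test), a level 2.46-fold lower. It fell by 1.47 in sh2-TUG1 (standard error 0.067, adjusted p = 6.44e-07 in edgeR's test), a level 2.77-fold lower. Ranked from the lowest log2(fold change), EGLN3 was number 49 of 13017 genes in sh1-TUG1 and 162 of 12953 in sh2-TUG1. Its annotation spans 538544 bases and includes SPTSSA on the same strand. SPTSSA had log2(fold change) values of −0.12 and 0.02 in these lines (adjusted p = 0.147 and 0.746 in edgeR's test).

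EGLN1, also called PHD2 and the main HIF prolyl hydroxylase of most cells when oxygen is plentiful (chromosome 1, 231363751 to 231425044, minus strand), had 166, 186 and 178 CPM in sh-Con, 135, 127 and 130 in sh1-TUG1 and 129, 129 and 114 in sh2-TUG1. Both knockdown lines were below the controls in every library and overlapped each other. EGLN1 fell by 0.43 on the log2 scale in sh1-TUG1 (standard error 0.054, adjusted p = 0.000413 in edgeR's test) and by 0.51 in sh2-TUG1 (standard error 0.066, adjusted p = 0.000265), levels 1.35-fold and 1.43-fold lower.

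EGLN2, also called PHD1 (chromosome 19, 40798996 to 40808433, plus strand), had 45.3, 43.3 and 41.9 CPM in sh-Con, 49.5, 45.3 and 50.2 in sh1-TUG1 and 74.2, 71.7 and 76.9 in sh2-TUG1. The sh2-TUG1 libraries stood well above all others, and the lowest sh1-TUG1 library (45.28 CPM) lay just above the highest control (45.27 CPM). Its log2(fold change) was 0.77 in sh2-TUG1 (standard error 0.057, adjusted p = 8.84e-06 in edgeR's test), a fold change of 1.71. In sh1-TUG1 it was 0.15 (95% interval 0.02 to 0.29, adjusted p = 0.0934 in edgeR's test). Without sh-Con replicate 1 it was 0.18 with an adjusted p of 0.0496 in the same test, the lowest of all settings tried. Among the settings that tested for any change the highest adjusted p was 0.287, without sh1-TUG1 replicate 3. In the test against a fold change of 1.5 (edgeR's glmTreat) EGLN2 did not pass in sh1-TUG1. Reads of EGLN2 may be divided with RAB4B-EGLN2, a readthrough gene on the same strand that had 0 to 453 counts in a library, with no order by line. With the counts of that gene added, EGLN2 had log2(fold change) values of 0.23 for sh1-TUG1 and 0.71 for sh2-TUG1 cells, with adjusted p = 0.0631 and 0.000117 in edgeR's test, a setting chosen after seeing the data.

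Set against each other within a library, the 3 EGLN mRNAs changed their makeup. EGLN3 supplied 28.4%, 28.9% and 28.4% of the summed EGLN counts in sh-Con, 16.1%, 17.0% and 16.9% in sh1-TUG1 and 13.9%, 14.1% and 13.5% in sh2-TUG1. EGLN2 supplied 15.4%, 13.4% and 13.7% in sh-Con, 22.5%, 21.9% and 23.1% in sh1-TUG1 and 31.5%, 30.6% and 34.9% in sh2-TUG1. EGLN1 kept the largest share of counts, not scaled to length, in every library. Its share was 57.3% ± 0.913 in sh-Con, 60.8% ± 0.786 in sh1-TUG1 and 53.8% ± 1.97 in sh2-TUG1 (SD, n = 3). The lines did not overlap in any of these shares, and each difference had p = 0.1 in the exact two-sided permutation test, the smallest possible. The order of EGLN2 and EGLN3 turned: EGLN3 held the larger share in all 3 control libraries and EGLN2 in all 6 knockdown libraries, also per kilobase of annotated exons. The place of EGLN1 depends on the length used, since its principal transcript has 7097 bases against 2821 in EGLN2 and 2709 in EGLN3. Per kilobase of the principal transcript, EGLN3 exceeded EGLN1 in sh-Con (32.5 against 24.9 CPM). On that scale EGLN1 led EGLN2 in sh1-TUG1 (18.4 against 17.1), and EGLN2 led EGLN1 in sh2-TUG1 (26.3 against 17.5). The summed EGLN level was 308 ± 13.5 CPM in sh-Con, 215 ± 6.94 in sh1-TUG1 and 230 ± 8.46 in sh2-TUG1.

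**Figure D3:**
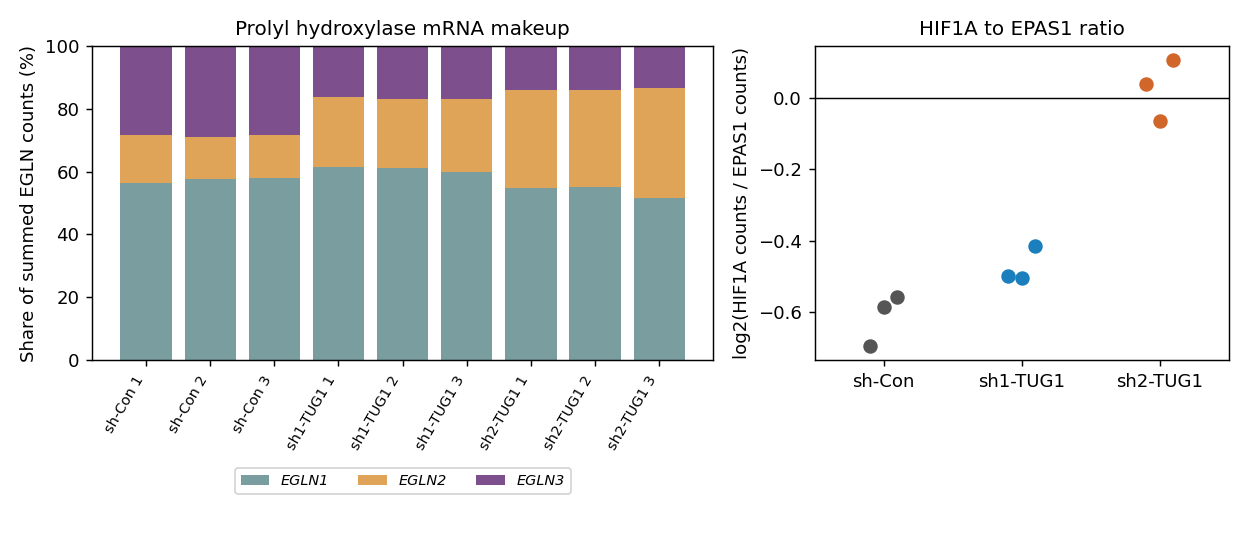
Left, the share of EGLN1, EGLN2 and EGLN3 in their summed counts (y axis, percent) in each library. Right, the log2 ratio of HIF1A to EPAS1 counts in each library by line. The EGLN3 share falls from over 28% in sh-Con to under 18% in both knockdown lines. The EGLN2 share is largest in sh2-TUG1, where the HIF1A to EPAS1 ratio of counts, not scaled to length, lies near 0.

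HIF1AN, the asparaginyl hydroxylase (chromosome 10, 100529072 to 100559998, plus strand), had 64.8, 70.0 and 73.6 CPM in sh-Con, 68.6, 67.7 and 71.8 in sh1-TUG1 and 68.8, 68.9 and 64.6 in sh2-TUG1. All 3 lines overlapped. The 95% interval of its log2(fold change) was −0.14 to 0.13 in sh1-TUG1 and −0.19 to 0.10 in sh2-TUG1, and in sh1-TUG1 its sign turned with library size alone as the scaling and when single libraries were left out. NDUFB8, on the opposite strand of this locus, had log2(fold change) values of 0.15 and −0.05 (adjusted p = 0.0921 and 0.565 in edgeR's test), and AL133352.1, also opposite, had −0.14 and −0.36 (adjusted p = 0.618 and 0.187). The strand setting of the counting is not given in the sources used here.

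VHL, the substrate-binding subunit of the ubiquitin ligase (chromosome 3, 10141008 to 10152220, plus strand), had 85.0, 96.6 and 98.0 CPM in sh-Con, 115, 111 and 112 in sh1-TUG1 and 133, 129 and 118 in sh2-TUG1. All 3 lines were apart, with sh-Con lowest. VHL rose by 0.27 on the log2 scale in sh1-TUG1 (standard error 0.061, adjusted p = 0.0106 in edgeR's test) and by 0.44 in sh2-TUG1 (standard error 0.070, adjusted p = 0.000868).

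CITED2, a HIF-induced protein that competes with the alpha subunits for their coactivators (chromosome 6, 139371807 to 139374620, minus strand), had 60.7, 52.2 and 51.0 CPM in sh-Con, 38.5, 39.6 and 39.9 in sh1-TUG1 and 28.95, 28.88 and 33.20 in sh2-TUG1. All 3 lines were apart, with sh2-TUG1 lowest. CITED2 fell by 0.47 on the log2 scale in sh1-TUG1 (standard error 0.070, adjusted p = 0.00116 in edgeR's test) and by 0.85 in sh2-TUG1 (standard error 0.085, adjusted p = 5.69e-05), levels 1.39-fold and 1.80-fold lower.

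Because 5 of these genes changed in the same direction in both lines, their promoters were read for the core of the HIF binding site, which is ACGTG or GCGTG. Of the 9 genes 8 had a promoter entry (RefSeq, GRCh38.p14, 250 bases before to 50 after each annotated start), and VHL had none. On either strand ACGTG occurred in 21.4% of 35116 promoters of all genes and GCGTG in 36.5%, and in 25.4% and 48.5% of the 13859 promoters of genes listed in these tables. One core or the other, or both, occurred in 48.4% of the promoters of all genes and in 60.7% of those of listed genes. The windows with ACGTG were those of EGLN1, EGLN2 and CITED2, printed here 5′ to 3′ along the gene with the core in capitals, so that a gene that was lower in both lines can be set beside one that was higher.
EGLN1, chr1:231422284-231422312, minus strand: gggccgtggtgtACGTGcagagcgcgcag
EGLN2, chr19:40799131-40799159, plus strand: cggggcgcggtcACGTGcccaccgggcga
CITED2, chr6:139374784-139374812, minus strand: agcctctgcagcACGTGccgcgggcggcg

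The core began at position −13 from the start in EGLN1, −48 in EGLN2 and −152 in CITED2. In EGLN2 and CITED2 the core is preceded by a C, so that the same letters read ACGTG on the other strand too, and the matches overlap. HIF1A and EPAS1 held GCGTG and no ACGTG, shown here for the alpha subunits.
HIF1A, chr14:61695297-61695325, plus strand: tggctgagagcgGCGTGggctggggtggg
EPAS1, chr2:46297278-46297306, plus strand: gggcctgccggcGCGTGcccgcccacaca

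CITED2 also had GCGTG in the windows of its other starts. The windows of ARNT, EGLN3 and HIF1AN held neither core. These matches describe letters in a window and say nothing of binding. EGLN2, which was higher in sh2-TUG1, and CITED2, which was lower in both lines, share the palindrome CACGTG.

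The study also asked about miR-122-5p, a microRNA that it links to TUG1, so the 3′ untranslated regions of the principal transcripts were read for the complement of its seed. Its level in these cells was not examined here. The mature sequence (RefSeq, GRCh38.p14, chr18:58451088-58451109, plus strand) is printed with bases 2 to 8, the seed, in capitals.
hsa-miR-122-5p: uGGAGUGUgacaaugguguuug

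The complement ACACTCC occurred in 915 of 11808 genes (7.7%), and among the 9 genes once in EGLN3 and once in HIF1AN. The sites are shown from the GENCODE 29 transcripts (GRCh38) with the match in capitals.
EGLN3, chr14:33925290-33925318, minus strand: ccatggggcagACACTCCttttttcccag
HIF1AN, chr10:100551409-100551437, plus strand: agtatggggagACACTCCctccctctgcc

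EGLN3 had the largest fall of the 9 genes in both lines, whereas the interval of HIF1AN included 0 in both. The region of HIF1AN was also the longest, with 11861 bases against 1660 in EGLN3. The other 7 genes had no match.

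The difference between the hairpin lines was tested directly in 1 fit of all 9 libraries. Of the 9 genes 6 passed, with HIF1A, VHL and EGLN2 higher in the sh2-TUG1 cells and EPAS1, EGLN3 and CITED2 higher in the sh1-TUG1 cells, where 42.7% of all genes passed (21.0% higher and 21.7% lower). EGLN2 alone did so with a fold change over 1.5 (10.6% of all genes). It fell below that fold change in 3 other settings. Its log2 difference was 0.56 with library size alone as the scaling and 0.58 without sh1-TUG1 replicate 2. With the counts of RAB4B-EGLN2 added, a setting chosen after seeing the data, it was 0.47. The libraries of the 2 lines did not overlap for the same 6 genes (55.4% of all genes). EGLN2 was 1.54-fold higher in sh2-TUG1 (log2(fold change) 0.62, adjusted p = 6.53e-06 in edgeR's test), HIF1A 1.31-fold higher (0.39, adjusted p = 5.18e-05) and CITED2 1.29-fold lower (−0.37, adjusted p = 0.00232). These 3 calls held without any single knockdown library and with the replicate number as a block.

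The other 3 differences were small and depended on single libraries. EPAS1 differed by −0.12 (adjusted p = 0.0426 in edgeR's test) and lost its call without sh1-TUG1 replicate 1 or 2 or sh2-TUG1 replicate 1 or 2, with adjusted p from 0.0846 to 0.141. VHL differed by 0.17 (adjusted p = 0.0405) and lost its call without any sh1-TUG1 replicate or sh2-TUG1 replicate 1 or 2, with adjusted p from 0.0630 to 0.145, and with library size alone as the scaling, where the adjusted p was 0.198. EGLN3 differed by −0.17 (adjusted p = 0.0392) and lost its call without any sh1-TUG1 replicate or sh2-TUG1 replicate 1 or 3, with adjusted p from 0.0532 to 0.143. In the test against a fold change of 1.5 (edgeR's glmTreat), none of EPAS1, VHL, EGLN3, HIF1A, EGLN2 and CITED2 passed between the lines. EGLN1 had a difference of −0.08 (adjusted p = 0.332 in edgeR's test), ARNT 0.04 and HIF1AN −0.04. Over all genes 2702 rose and 2786 fell from sh1-TUG1 to sh2-TUG1, and with library size alone as the scaling 1912 and 3532.

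The targets of these factors were described with a list of 48 genes known to be induced by HIFs, of which 47 were tested. Of these 41 fell and 0 rose in sh1-TUG1, where 12.3% of all genes were lower, and the median log2(fold change) was −0.64. Of the same genes 38 fell and 1 rose in sh2-TUG1, where 21.9% of all genes were lower, and the median was −0.78. SLC2A3, the glucose transporter GLUT3, had 333 ± 17.8, 122 ± 2.503 and 34.2 ± 3.52 CPM in sh-Con, sh1-TUG1 and sh2-TUG1, with log2(fold change) values of −1.45 and −3.28. EPO, the red cell hormone erythropoietin, had −1.23 and −3.06, ANGPTL4, an inhibitor of lipoprotein lipase, −0.80 and −2.10, and PFKFB3, an activator of glycolysis, −0.83 and −1.86 (all with adjusted p under 0.05 in edgeR's test). EPO and ANGPTL4 were low: EPO had means of 13.4, 5.69 and 1.58 CPM in sh-Con, sh1-TUG1 and sh2-TUG1, and ANGPTL4 10.3, 5.92 and 2.40. The gene that was higher in sh2-TUG1 was JMJD6, an oxygenase, with 0.35. Of the 47 genes 6 did not pass in sh1-TUG1 and 8 did not pass in sh2-TUG1. VEGFA was among those 8: it had −0.31 in sh1-TUG1, which passed, and 0.01 in sh2-TUG1. For VEGFA the lines differed by 0.32 (adjusted p = 0.000722 in edgeR's test). JMJD6 and VEGFA were chosen for mention after their values were seen. The study's text names ALDOA, ALDOC and ENO1 of this list as lower in these libraries. Without those genes and without LDHA and PGK1, 36 of 42 fell in sh1-TUG1 cells and 33 in sh2-TUG1 cells. In a test against a fold change of 1.5 (edgeR's glmTreat), 13 and 23 of the 47 remained lower. In that test 69 of all 13017 genes were lower in sh1-TUG1 and 399 of 12953 in sh2-TUG1. In sh2-TUG1 these lower targets stood beside a higher level of HIF1A mRNA and a lower level of EPAS1 mRNA.

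**Figure D4:**
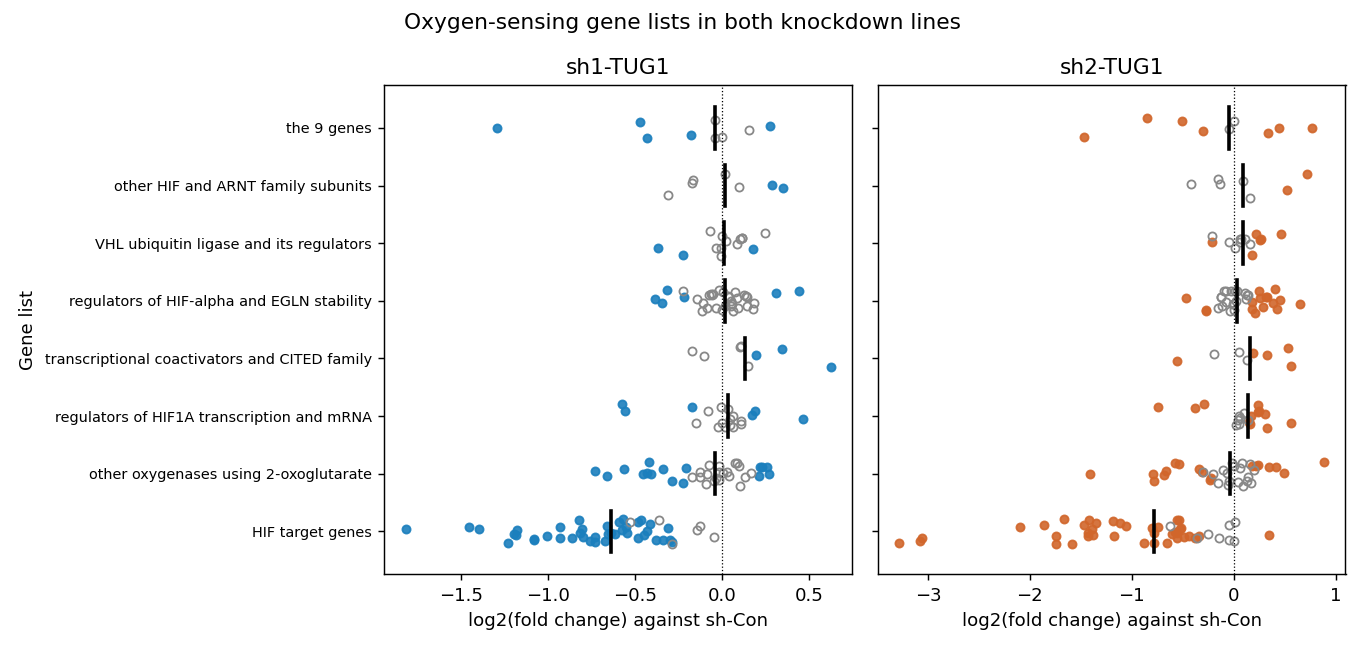
Log2(fold change) against sh-Con (x axis) of the genes of each list that are listed in both tables, in sh1-TUG1 (left) and sh2-TUG1 (right), filled where the adjusted p was under 0.05, with a bar at the median of the genes drawn. The HIF target genes lie almost wholly below 0 in both panels, with medians of −0.64 and −0.78.

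The partners of these genes were described with lists of the same pathway. The VHL ligase and its regulators (14 of 15 genes tested) had 1 gene that rose and 2 that fell in sh1-TUG1 cells, and 5 that rose and 1 that fell in sh2-TUG1 cells, where 24.8% and 43.5% of all genes passed, with medians of 0.01 and 0.09. OTUD7B, a deubiquitinase, had log2(fold change) values of 0.11 and 0.46 and passed in sh2-TUG1, and WSB1, a ubiquitin ligase subunit reported to act on VHL, had −0.37 and 0.07 and passed in sh1-TUG1. UBE2S, a ubiquitin-conjugating enzyme, had 0.25 and 0.26, and UBE2M, which conjugates NEDD8 to cullins, −0.07 and 0.27, both passing in sh2-TUG1 only. Whether 1 line differed from the other was tested for each: sh2-TUG1 minus sh1-TUG1 was 0.35 for OTUD7B, 0.45 for WSB1 and 0.34 for UBE2M (adjusted p = 0.000310, 7.47e-05 and 0.00507 in edgeR's test), and 0.01 for UBE2S (adjusted p = 0.947).

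Of 35 genes known to act on the stability of alpha subunits or EGLN proteins, all were tested. In sh1-TUG1 cells 2 of them rose and 4 fell, and in sh2-TUG1 cells 13 rose and 3 fell, beside 24.8% and 43.5% of all genes that passed, with medians of 0.02 and 0.03. RUVBL2, a chromatin ATPase subunit, had log2(fold change) values of −0.32 and −0.46, and PKM, pyruvate kinase, which is one of the genes that the study picked from these libraries, −0.39 and −0.27. RHOBTB3, reported to promote HIF-1 alpha breakdown, had 0.44 and 0.43, and LIMD1, a scaffold that joins prolyl hydroxylases and VHL, 0.31 and 0.29 (all with adjusted p under 0.05 in edgeR's test).

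Among the coactivators and the other CITED genes (8 of 11 tested), 3 rose and 0 fell in sh1-TUG1 cells, and 4 rose and 1 fell in sh2-TUG1 cells, with medians of 0.13 and 0.16. Of all genes 12.5% rose and 12.3% fell in the former cells and 21.6% rose and 21.9% fell in the latter. CREBBP, a histone acetyltransferase that HIFs recruit, had log2(fold change) values of 0.34 and 0.56 (adjusted p = 0.0141 and 0.000589 in edgeR's test). CITED4, a relative of CITED2, had 0.62 and −0.56 (adjusted p = 0.00830 and 0.0202), and the lines differed by −1.18 (adjusted p = 3.98e-05). CITED4 was thus higher in sh1-TUG1 and lower in sh2-TUG1, whereas CITED2 was lower in both.

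Of the other HIF and ARNT family subunits, 7 of 9 were tested for sh1-TUG1 and 8 for sh2-TUG1, and HIF3A was listed in neither table. In each line 2 rose and 0 fell, with medians of 0.01 and 0.13, where 24.8% and 43.5% of all genes passed. ARNTL, the clock protein BMAL1, had log2(fold change) values of 0.35 and 0.71 (adjusted p = 0.0368 and 0.000315 in edgeR's test). AHR, the aryl hydrocarbon receptor, which also pairs with ARNT, had 0.10 and 0.53 and passed in sh2-TUG1, and the lines differed by 0.43 (adjusted p = 2.34e-05 in edgeR's test). ARNTL2 had 0.28 and 0.17 and passed in sh1-TUG1, and the lines differed by −0.12 (adjusted p = 0.254), which did not pass.

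The levels of the 9 genes across libraries are set side by side as a description, since the 9 libraries fall into 3 lines and any gene that differs between lines shares that split. On log2 CPM over the 9 libraries, Pearson's r was 0.98 for EGLN1 with EGLN3, 0.93 for HIF1A with EGLN2 and −0.99 for VHL with CITED2. Among 9312 genes with a mean of at least 10 CPM, those most like EGLN3 were ACTG1 (r = 0.999), APOL1 (0.997) and BNIP3 (0.995). Those most like HIF1A were PPP1R18 (0.984), ZFP36L1 (0.978) and OPTN (0.977). For EPAS1 they were MICAL1, CALD1 and ZHX2 (each 0.987), and for EGLN1 they were SLC40A1 (0.982), ITGB5 (0.982) and GOLGA8B (0.980). CITED2 was most like SRCIN1 (0.993), a locus without an Ensembl identifier named NewGene_5367 (0.991) and MT2A (0.991).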

How the data were processed

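RNA-seq of 9 HepG2 libraries was analysed, 3 per line, grouped by the sample labels. The counts, whole reads per gene without normalization, are those that the authors deposited in a table for either knockdown line. The submitters' processing notes name HISAT2, StringTie and GRCh38 with no version, and the counting tool and its strand setting are not given in the sources used here. The deposited tables also hold FPKM values, and a false discovery rate (an adjusted p-value) and a log2 fold change of the authors' own comparison, and none of these was used. No per-sample column was left without a sample. For the 12854 shared genes the tables give the same counts of the control libraries.

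Tests used R 4.3.3 and edgeR 4.0.16 (TMM, quasi-likelihood F test, filterByExpr, Benjamini–Hochberg over all genes of a fit, threshold 0.05), with DESeq2 1.42.0 as an alternative and scipy 1.17.1 for exact permutation tests. Each knockdown line was fitted with sh-Con (6 libraries), and the lines were compared in 1 fit of all 9. CPM values are TMM-normalized over all 9 libraries, and their SD is over 3 libraries. Patterns used log2 CPM with a prior count of 2. Positions and lengths are from GENCODE 29. The test was first tried on simulated data. The symbols of 7 genes in each table could not be read and were replaced by the GENCODE name.

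The 9 genes, the lists (HIF targets, other subunits, the VHL ligase, stability regulators, coactivators, HIF1A transcription and mRNA regulators, other oxygenases, and markers of hepatocytes, fibroblasts, endothelium and leukocytes) and the tests were chosen with earlier results of these data known. In each list the genes named are up to 4 with the largest change among those that passed in both lines or, where fewer than 2 did, in either, and, for 5 of the 9 genes, the 3 genes with the most similar profile. Genes that overlap one of the 9 are also named where listed. HIF1A, ARNT, EGLN2, EGLN3 and CITED2 have further overlapping annotated genes that are not listed, and these are not named. Some genes share 2 lists. Alternatives were other normalizations, filters, DESeq2, a replicate block, a test against a fold change of 1.5, 1 fit of more libraries and leaving out each library.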

Additional observations from a re-analysis of the deposited data

Results flagged for a closer look

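For 6 of the 9 genes the response differed between the hairpin lines, tested as sh2-TUG1 minus sh1-TUG1 in the fit of all 9 libraries, where 42.7% of all genes passed. The log2 difference was 0.385 for HIF1A, 0.621 for EGLN2 and −0.373 for CITED2, the 3 genes whose call held without any single knockdown library. It was −0.116 for EPAS1, 0.170 for VHL and −0.169 for EGLN3, whose calls were lost without some single libraries and under the replicate block. EPAS1, VHL, EGLN3 and CITED2 had the same direction against sh-Con in both lines and a larger change in sh2-TUG1. EGLN2 was above sh-Con in both lines and passed in sh2-TUG1, while HIF1A passed in sh2-TUG1 and had a value of −0.04 in sh1-TUG1.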

How the results depend on the processing

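Of the 9 genes 5 passed in sh1-TUG1, 7 in sh2-TUG1 and 6 between the lines. A fold change over 1.5 as a second criterion left 1, 3 and 1, and a test against that fold change (edgeR's glmTreat) left 1, 3 and 0. Leaving out each library of the 2 lines compared gave 4 to 6, 7 to 7 and 3 to 5 (sh-Con libraries were kept in the fit between the knockdown lines), with 3 between the lines without sh1-TUG1 replicate 1, sh1-TUG1 replicate 2 or sh2-TUG1 replicate 1. Of the genes on the lists other than the markers, 71 of 159 passed in sh1-TUG1 and 92 of 160 in sh2-TUG1. Of all genes 24.8% and 43.5% passed. The HIF targets made up 41 of the 71, all lower, and 38 lower and 1 higher of the 92. For the list genes glmTreat left 13 and 25, while leaving out each library gave 54 to 82 and 80 to 96. Of all genes glmTreat called 114 in place of 3232 in sh1-TUG1, 600 in place of 5638 in sh2-TUG1 and 330 in place of 5488 between the lines, and without sh1-TUG1 replicate 2 or 3 the sh1-TUG1 count was 2036 or 2081. Signs turned only for ARNT and HIF1AN, whose intervals include 0: with library size alone HIF1AN was 0.022 in sh1-TUG1 and ARNT −0.033 in sh2-TUG1 and −0.019 between the lines. When each library was left out, ARNT ran from −0.098 to 0.042 in sh1-TUG1, from −0.065 to 0.090 in sh2-TUG1 and from −0.026 to 0.080 between the lines, and HIF1AN from −0.057 to 0.034 in sh1-TUG1. The difference in the log2 ratio of HIF1A to EPAS1 ran from 0.10 to 0.17 for sh1-TUG1 against sh-Con, 0.60 to 0.68 for sh2-TUG1 against sh-Con and 0.46 to 0.54 between the knockdown lines. The share of EGLN1 differed by 3.034 to 4.0003, −4.17 to −2.33 and −7.72 to −5.88 percentage points, that of EGLN2 by 7.98 to 8.93, 16.9 to 19.0 and 8.56 to 10.7, and that of EGLN3 by −12.0 to −11.6, −14.9 to −14.6 and −3.12 to −2.68 in the same order. Per kilobase of annotated exons these differences were 2.91, −4.49 and −7.40 for EGLN1, 8.86, 19.1 and 10.3 for EGLN2, and −11.8, −14.7 and −2.88 for EGLN3.

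The replicate number as a block left 5 and 7 genes against sh-Con and 3 between the lines, where EPAS1, VHL and EGLN3 had adjusted p = 0.0707, 0.0686 and 0.0615 in edgeR's test. The numbers did not pair the libraries, since deviations of same-numbered libraries correlated at −0.189 to 0.0415 over 9312 genes. Adding the counts of RAB4B-EGLN2 to EGLN2, a setting chosen after seeing the data, left 5, 7 and 6 genes. With 3 libraries a group an exact permutation test cannot go below p = 0.1, and mRNA counts do not show protein levels or hydroxylation.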

Other observations

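Other oxygenases that, like the EGLN enzymes, use oxygen and 2-oxoglutarate did not move one way. Of 40 such genes 36 were tested, of which 5 rose and 11 fell in sh1-TUG1 cells and 7 rose and 11 fell in sh2-TUG1 cells, with medians of −0.04 and −0.03, where 12.3% and 21.9% of all genes fell. TET1, which oxidizes methylcytosine in DNA, had log2(fold change) values of −0.42 and −1.41 (adjusted p = 0.0309 and 0.00209 in edgeR's test). KDM6A, a histone demethylase, had 0.21 and 0.89 (adjusted p = 0.0342 and 5.84e-06). P4HA1, a collagen prolyl hydroxylase subunit that is also on the HIF target list, had −0.73 and −0.78, and P3H3, a relative of the collagen prolyl hydroxylases, −0.46 and −0.79 (all with adjusted p under 0.05). Of the 40 genes 6 are also on the HIF target list: JMJD6, KDM3A, KDM4B, P4HA1, P4HA2 and PLOD2.

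Genes known to act on HIF1A transcription or on its mRNA (19 of 19 tested) had 3 that rose and 3 that fell in sh1-TUG1 cells and 9 that rose and 3 that fell in sh2-TUG1 cells, with medians of 0.03 and 0.14, where 24.8% and 43.5% of all genes passed. DDIT4, an inhibitor of mTOR signalling that is also a HIF target, had log2(fold change) values of −0.58 and −0.74, and ZFP36, which promotes decay of mRNAs with AU-rich elements, −0.56 and −0.29. STAT3, a transcription factor, had 0.47 and 0.31, and PTBP1, an RNA-binding protein, 0.19 and 0.16 (all with adjusted p under 0.05 in edgeR's test).

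Among the 10 hepatocyte markers 5 rose and 2 fell in sh1-TUG1 cells, and 3 rose and 5 fell in sh2-TUG1 cells, where 24.8% and 43.5% of all genes passed. ALB, albumin, had 0.45 and 0.91, TTR, transthyretin, 0.47 and −0.82, TF, transferrin, −0.65 and −0.50, and SERPINA1, the protease inhibitor alpha-1 antitrypsin, −0.24 and −0.60 (all with adjusted p under 0.05 in edgeR's test). PDGFRB, a growth factor receptor, had 0.65 and 1.44, VWF, a clotting protein, 1.40 and 1.65, and CD68, a lysosomal protein of macrophages and other cells, −0.86 and −1.61, with adjusted p under 0.05 in the same test. VWF was low, with means of 1.49, 3.96 and 4.70 CPM in sh-Con, sh1-TUG1 and sh2-TUG1. PECAM1, the other endothelial marker listed, had 0.06 and 0.12 (adjusted p = 0.794 and 0.488 in edgeR's test).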
